A study of Mus musculus with 10 samples.

Results

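The genes described here are 10 markers of neural progenitor cells, Pax6, Sox1, Sox3, Sox21, Pou3f2, Pou3f3, Zic1, Hes5, Fabp7 and Nes. They were chosen by name, with no threshold on their values, and each of the 10 was found under its own single name among the 46955 rows of an RNA-seq table. The study profiled C57BL/6 mouse embryonic stem cells (ESCs), embryoid bodies (EBs, aggregates that ESCs form when they differentiate) and whole embryos, 10 libraries in 6 groups. The groups were WT ESCs and Strap-/- (KO) ESCs with 1 library each, and WT EBs at day 9, KO EBs at day 9, WT embryos at embryonic day 8.0 (E8.0) and WT embryos at E9.0 with 2 libraries each. Strap encodes a WD40-repeat protein, and the deletion came from zinc finger nucleases. The ESC lines were derived from blastocysts and grown on fibroblast feeder cells. EBs were formed without LIF and then kept in N2B27 medium, which favours neural fates, with 10 ng/ml bFGF, and the labels and the methods give different lengths for that phase. The labels do not say which of several lines of each genotype was used, each embryo library is a pool of whole embryos, and for E8.0 the table's headers name a later stage, where the stage in the labels was used. The question for these genes was how far they changed between the embryonic stages, and whether loss of Strap altered them in EBs directed towards neuroectoderm.

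Neural progenitors are the dividing cells of the neural plate and neural tube from which neurons and glia arise. SOX1 and SOX3, of the SoxB1 family, hold these cells in the progenitor state, while SOX21, of the SoxB2 family, opposes SoxB1 activity. The class III POU factors encoded by Pou3f2 and Pou3f3 bind DNA together with SOX proteins, Pax6 patterns the eye and forebrain, and Zic1 marks dorsal neural tissue. Hes5 is a target of Notch signalling, in which the receptor's intracellular domain joins the DNA-binding protein RBPJ and switches on repressors of neuronal genes. Fabp7 encodes a fatty acid binding protein of radial glia, and Nes encodes nestin, an intermediate filament protein of neural progenitors that is also made by other young cells such as muscle and endothelial precursors.

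Hes5 spanned the widest range of levels in the set, so its upstream sequence is shown. The letters GTGGGAA or TTCCCAC, a motif that RBPJ binds, and ACAATG or CATTGT, a motif of SOX proteins, are in capitals in the 250 bases before its start site (RefSeq, GRCm38.p6, chr4:154960673-154960922, + strand, 5′ to 3′).
Hes5 upstream: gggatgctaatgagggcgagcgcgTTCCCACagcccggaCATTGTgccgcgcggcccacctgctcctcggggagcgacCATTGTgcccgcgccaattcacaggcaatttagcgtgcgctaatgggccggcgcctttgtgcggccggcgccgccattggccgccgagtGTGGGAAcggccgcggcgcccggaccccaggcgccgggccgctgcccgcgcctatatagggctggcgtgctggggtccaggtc
The RBPJ letters stood 226 to 220 and 83 to 77 bases before the start, and the SOX letters 211 to 206 and 172 to 167 bases before it, with no overlap between them. Both strands of the same stretch were searched for all 32851 RefSeq promoter windows, and 5.42% held the RBPJ letters at least once, 0.161% held them 2 or more times and 10.69% held the SOX letters. Promoter windows were matched for 9 of the 10 genes (all but Sox3), and Hes5 was the only one of those with either motif. The POU octamer ATGCAAAT was in 1.60% of all windows and in none of the 9 genes. These are matches of letters and not measured binding sites.

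In the annotation of GRCm38 (GENCODE M21) the set is spread over 9 chromosomes, with Pou3f2 and Hes5 both on chromosome 4. Sox1 (ENSMUSG00000096014.1, chr8:12395295-12400126), Sox3 (ENSMUSG00000045179.9, chrX:60891366-60893430), Sox21 (ENSMUSG00000061517.8, chr14:118233232-118237030), Pou3f2 (ENSMUSG00000095139.2, chr4:22482780-22488366) and Pou3f3 (ENSMUSG00000045515.3, chr1:42695768-42703176) are genes of a single exon and a single annotated transcript. Pax6 (ENSMUSG00000027168.21, chr2:105668900-105697364), Zic1 (ENSMUSG00000032368.14, chr9:91358058-91365810), Hes5 (ENSMUSG00000048001.7, chr4:154960923-154962371), Fabp7 (ENSMUSG00000019874.11, chr10:57784881-57788450) and Nes (ENSMUSG00000004891.16, chr3:87971078-87980451) have several transcripts. Noncoding genes overlap Sox1 (Gm25239, Sox1ot) and Pou3f3 (AC122898.1) on the same strand, so the authors' estimate could have divided reads there, whereas the partners of Pax6, Sox21, Zic1 and Hes5 lie on the opposite strand and the counting used strand.

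Levels are in FPKM, which are fragment numbers divided by transcript length and by library depth. The values of low genes fell on whole multiples of 1 fragment (97.5% to 98.6% of them within 0.1 of a whole fragment), and the steps gave depths of 6700000 to 6890000 fragments for the ESC libraries, 10900000 to 18600000 for the EBs and 34200000 to 55100000 for the embryos. KO EB replicate 2 was the shallowest EB library, with 10900000 fragments. Strap itself was 49.7 and 47.2 FPKM in WT EBs and 8.48 and 11.3 FPKM in KO EBs, a fall of 2.19 on the log2 scale (SE 0.228, limma adjusted p = 0.0191, n = 2 per group), and 68.7 against 14.5 FPKM in the WT and KO ESC libraries. Every KO library was below every WT library of the same material. Nothing in the labels says that EB replicates were separate experiments, so p-values measure the spread between these libraries.

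**Figure D1:**
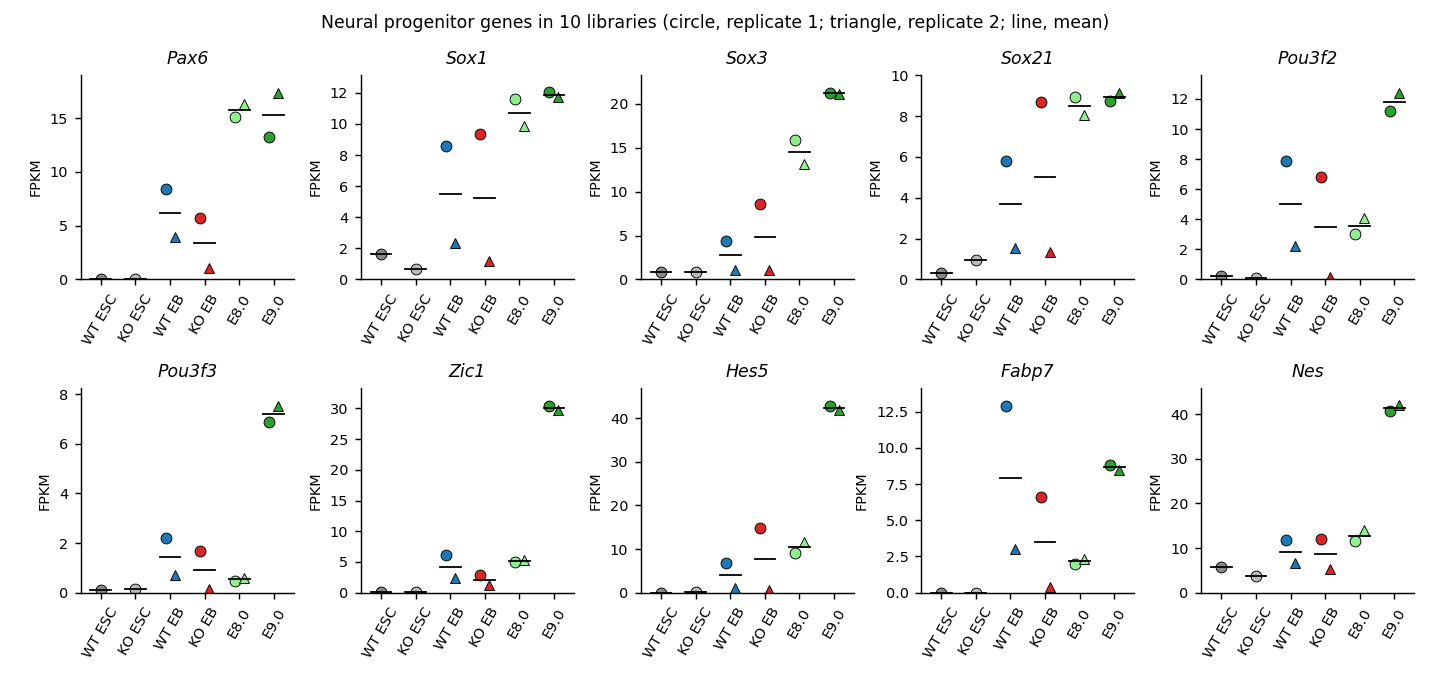
FPKM of each of the 10 neural progenitor genes (vertical axes, linear, from 0) in the 6 groups (horizontal axes), with a circle for replicate 1, a triangle for replicate 2 and a line at the group mean. Both E9.0 libraries exceed all other libraries for Pou3f3, Zic1, Hes5 and Nes, among others, and in the EBs the circle stands above the triangle for every gene.

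Between E8.0 and E9.0, 6 of the 10 genes rose, Pou3f3, Zic1, Hes5, Fabp7, Pou3f2 and Nes, by 3.23-fold to 13.4-fold in mean FPKM. Pax6, Sox1, Sox21 and Sox3 did not pass the test. Over all 15160 rows tested, 25.8% were called at an adjusted p under 0.05, 13.7% higher and 12.0% lower at E9.0. The median log2 difference of the 10 genes was 1.55, and that of all rows was 0.00. Log2 differences are on the scale of log2(FPKM + 1), which understates changes of low genes. In whole embryos a larger share of neural cells and more RNA per cell cannot be told apart.

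The POU genes showed the change from a low base. Pou3f3 was 0.463 and 0.613 FPKM in the E8.0 libraries and 6.88 and 7.52 FPKM in the E9.0 libraries, or 150 and 168 estimated fragments against 1710 and 3012. That was a 13.4-fold difference of the means and 2.42 on the log2 scale (SE 0.198, limma adjusted p = 0.000511, n = 2 per group). Pou3f2, its close relative, was 3.04 and 4.09 FPKM at E8.0 and 11.2 and 12.4 FPKM at E9.0, a log2 difference of 1.49 (SE 0.371, limma adjusted p = 0.0243). The stages did not overlap for either gene. At E8.0 Pou3f3 lay below Pou3f2 and at E9.0 it still did, with 7.20 ± 0.449 against 11.8 ± 0.863 FPKM (mean ± SD, n = 2).

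Zic1, the dorsal neural factor, was 4.93 and 5.33 FPKM at E8.0 and 30.3 and 29.8 FPKM at E9.0, a log2 difference of 2.34 (SE 0.166, limma adjusted p = 0.000317, n = 2 per group). Hes5, the Notch target whose upstream bases are shown above, was 9.11 and 11.7 FPKM at E8.0 and 42.7 and 41.9 FPKM at E9.0, a log2 difference of 1.93 (SE 0.438, limma adjusted p = 0.0177). Replicates at each stage lay much closer to each other than the stages did. Nes was 11.5 and 14.1 FPKM at E8.0 and 40.8 and 42.1 FPKM at E9.0, a log2 difference of 1.63 (SE 0.172, limma adjusted p = 0.00117). Fabp7 was 2.01 and 2.36 FPKM at E8.0 and 8.84 and 8.50 FPKM at E9.0, a log2 difference of 1.60 (SE 0.349, limma adjusted p = 0.0154). At E9.0 Hes5 and Nes were the most abundant of the 10 genes per unit of length, with means of 42.3 ± 0.538 and 41.4 ± 0.910 FPKM (SD, n = 2), which did not separate from each other.

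The genes that did not pass were already present at E8.0. Pax6 was 15.1 and 16.3 FPKM at E8.0 and 13.2 and 17.3 FPKM at E9.0, so the stages overlapped (log2 difference -0.05, SE 0.249, limma adjusted p = 0.915). It had the highest E8.0 mean of the set, 15.7 ± 0.847 FPKM (SD, n = 2), next to Sox3 at 14.5 ± 1.89, and these did not separate. Sox1 was 11.6 and 9.84 FPKM at E8.0 and 12.0 and 11.7 FPKM at E9.0, and Sox21 was 8.92 and 8.05 against 8.73 and 9.15 FPKM. Their log2 differences of 0.14 (Sox1, SE 0.316, limma adjusted p = 0.783) and 0.07 (Sox21, SE 0.291, limma adjusted p = 0.895) were smaller than their SEs. The stages overlapped for Sox21 but not for Sox1. Sox3 was 15.9 and 13.2 FPKM at E8.0 and 21.3 and 21.1 FPKM at E9.0. Its stages did not overlap, but the difference of 0.52 (SE 0.305, limma adjusted p = 0.249) missed the threshold. With only the embryo groups fitted, Sox3 passed (limma adjusted p = 0.0437), and with a replicate block it did not (limma adjusted p = 0.0540). In all, 8 of the 10 genes had both E9.0 values above both E8.0 values, which held for 33.2% of all rows.

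When any 1 embryo library was left out, the called genes were Nes, Pou3f3 and Zic1, while Hes5, Fabp7 and Pou3f2 lost their call. With a single variance for EBs and embryos (no weights by material), 2 genes were called (Pou3f3 and Zic1).

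**Figure D2:**
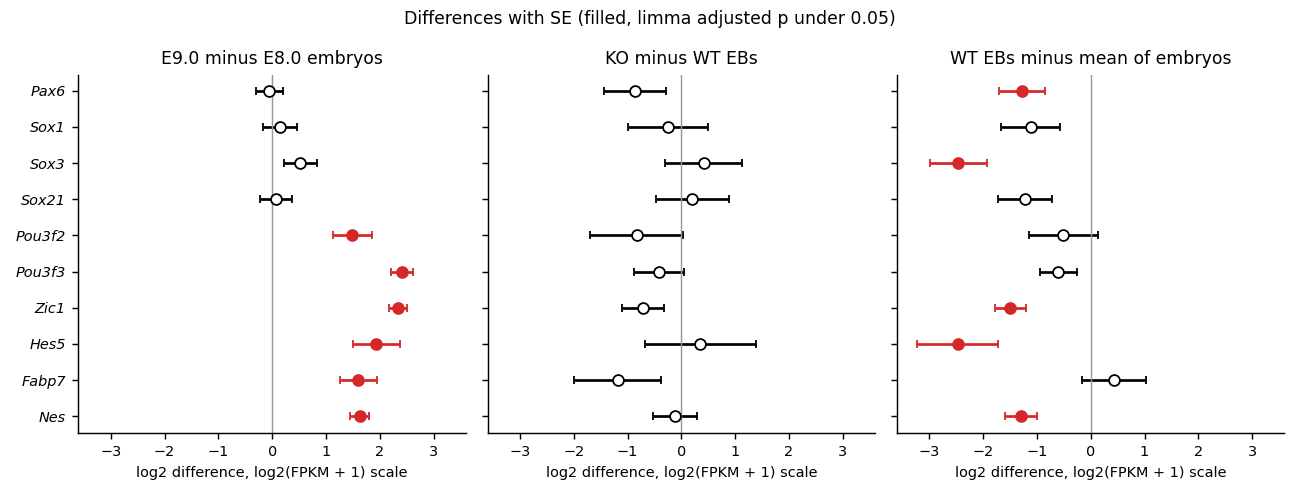
Log2 differences on the log2(FPKM + 1) scale with their SE for the 10 genes (rows) in 3 comparisons (panels), with filled red points for an adjusted p under 0.05. The 6 genes called between stages lie between 1.49 and 2.42, no gene is called between KO and WT EBs, and 5 genes are called lower in WT EBs than in the mean of the embryos.

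All 10 genes were at or above 1 FPKM in both EB libraries numbered 1, 9 were in WT EB replicate 2 and 6 in KO EB replicate 2, while in ESCs only Nes, and Sox1 in WT, reached 1 FPKM. In the ESC libraries, with 1 per genotype and no test possible, Nes was 5.80 FPKM in WT and 3.83 FPKM in KO. Pax6 was 0.052 and 0.0541 FPKM, Zic1 0.108 and 0.136 FPKM, and Pou3f3 0.120 and 0.143 FPKM. Fabp7 was listed at 0 in both ESC libraries, and the limit taken for a count of 0, 3 fragments (a one-sided 95% limit), would be 0.583 FPKM in WT and 0.586 FPKM in KO. Hes5 was listed at 0 in WT (limit 0.382 FPKM) and at 0.129 FPKM, the value of 1 fragment, in KO.

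The SOX genes and Pou3f2 gave few fragments in ESCs. Sox1 had an estimated 53 fragments in WT (1.64 FPKM, exact two-sided 95% Poisson interval 1.23 to 2.14) and 22 in KO (0.694 FPKM, interval 0.437 to 1.05). Sox21 had 8 in WT (0.316 FPKM, interval 0.137 to 0.624) and 24 in KO (0.970 FPKM, interval 0.623 to 1.45). Sox3 had 11 in each, at 0.824 and 0.841 FPKM, and Pou3f2 had 9 and 3, at 0.239 and 0.0816 FPKM. The intervals of Sox1 did not overlap and those of Sox21 met at their ends, which compares these libraries and not the genotypes. The intervals cover counting error only. Of the genes with at least 1 FPKM in either library, Nes was 1.51-fold and Sox1 2.36-fold lower in KO than in WT as plain FPKM ratios. On the log2(FPKM + 1) scale KO minus WT was -0.49 for Nes and -0.64 for Sox1, under 2-fold for both, and with a pseudocount of 0.1 Sox1 passed 2-fold (-1.13). Of all rows compared, 3.00% were at least 2-fold higher and 3.70% at least 2-fold lower in the KO ESC library on the log2(FPKM + 1) scale. Fibroblast markers, such as Col1a1 at 164 and 149 FPKM, summed to 282 and 268 FPKM in the ESC libraries and to 13.4 to 40.8 FPKM in the EBs. Lum, another of these markers, was 0.224 and 0.456 FPKM in the ESC libraries and 0.0949 to 6.11 FPKM in the EBs. The part of fibroblasts in the ESC level of Nes was not tested.

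Against the ESC library of the same genotype, 8 of 10 genes were at least 2-fold higher in WT EBs on the log2(FPKM + 1) scale, where 11.5% of all rows were, and 8 of 10 in KO EBs, where 10.7% were. None of the 10 was 2-fold lower, against 11.7% of all rows in WT and 9.79% in KO. The ones under 2-fold on that scale were Nes (log2 difference 0.54) and Sox3 (0.88) in WT, and Nes (0.91) and Pou3f3 (0.62) in KO. As plain ratios of mean FPKM, Nes was 1.59-fold and Sox3 3.34-fold higher in WT EBs, and Nes 2.26-fold and Pou3f3 6.35-fold higher in KO EBs. With a pseudocount of 0.1, 9 of 10 genes in WT and 10 of 10 in KO were at least 2-fold higher. With 1 ESC library each, these are descriptions with no replicate check.

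The WT and KO EBs overlapped for every one of the 10 genes, and none was called by genotype. Over all rows 0.139% were called, 3 rows (0.0198%) higher and 18 rows (0.119%) lower in KO. At an unadjusted p under 0.05 none of the 10 genes passed, against 13.8% of all rows (limma), and 46.7% of all rows had groups that did not overlap. The median KO minus WT log2 difference of the 10 genes was -0.33 and that of all rows 0.01. Individual log2 differences ran from -1.19 for Fabp7 (SE 0.815, limma adjusted p = 0.548) to 0.41 for Sox3 (SE 0.712, limma adjusted p = 0.836), with SEs of 0.387 (Zic1) to 1.02 (Hes5), so a missing call does not show equal levels. Leaving out any 1 library called none of the 10 genes at the adjusted threshold, but changed which had an unadjusted p under 0.05 (limma). Without KO EB replicate 1 there were 4, all lower in KO (Fabp7, Pax6, Pou3f2 and Zic1, with 13.0% of all rows), without KO EB replicate 2 there were 2, both higher in KO (Hes5 and Sox3, with 7.55% of all rows), and without WT EB replicate 2 there was 1, lower in KO (Zic1, with 12.8%).

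What separated the EB libraries for these genes was the replicate number. The Notch target Hes5 was 6.87 and 1.02 FPKM in WT EB replicates 1 and 2, and 14.7 and 0.649 FPKM in KO EB replicates 1 and 2. Fabp7 was 12.9 and 3.04 FPKM in WT and 6.64 and 0.416 FPKM in KO. Pou3f2 was 7.89 and 2.20 FPKM in WT and 6.83 and 0.152 FPKM in KO, the latter from an estimated 9 fragments. For each of these, replicate 1 of either genotype exceeded replicate 2 of both.

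The SOX genes followed the same order. Sox1 was 8.57 and 2.35 FPKM in WT and 9.33 and 1.19 FPKM in KO, in replicates 1 and 2. Sox3 was 4.42 and 1.08 FPKM in WT and 8.53 and 1.10 FPKM in KO, and Sox21 was 5.81 and 1.54 against 8.70 and 1.35 FPKM. In replicate 1 the KO library was above the WT library for all 3, and in replicate 2 it was below for Sox1 and Sox21 and level for Sox3. Pou3f3 was 2.20 and 0.700 FPKM in WT and 1.66 and 0.151 FPKM in KO.

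Pax6, the eye and forebrain factor, was 8.37 and 3.93 FPKM in WT and 5.75 and 1.07 FPKM in KO. Zic1 was 6.08 and 2.39 FPKM in WT and 2.84 and 1.31 FPKM in KO. For these the KO library was below the WT library of the same number in both replicates, as it was for Fabp7, Pou3f2 and Pou3f3. Nes varied least, with 11.8 and 6.60 FPKM in WT and 12.0 and 5.35 FPKM in KO.

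Replicate 1 exceeded replicate 2 by 1.79-fold (Nes) to 6.75-fold (Hes5) in WT EBs, with a median of 3.62-fold, and by 2.18-fold (Zic1) to 45.0-fold (Pou3f2) in KO EBs, with a median of 7.80-fold. In embryos the same ratios were 0.744 to 1.20 at E8.0 and 0.763 to 1.04 at E9.0. All 10 genes had both EB libraries numbered 1 above both numbered 2, which held for 20.8% of all rows, and 18.9% had the opposite order. A mean difference of at least 1 log2 unit between the numbers was seen in 8 of the 10 genes and in 2.90% of all rows. KO EB replicate 2 was the lowest EB library for 9 of 10 genes, against 29.5% of all rows, and Sox3 was lowest in WT EB replicate 2. This order was noticed in the data and is given with no test.

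**Figure D3:**
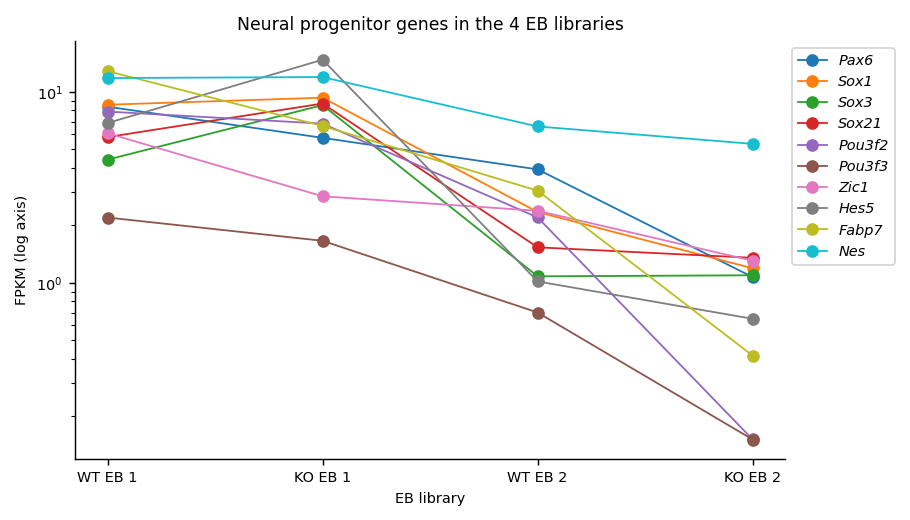
FPKM (log axis) of the 10 genes in the 4 EB libraries, each line a gene, ordered by replicate number and then genotype. All lines fall from the libraries numbered 1 to those numbered 2, and KO EB 2 is the lowest point for 9 of the 10.

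**Figure D4:**
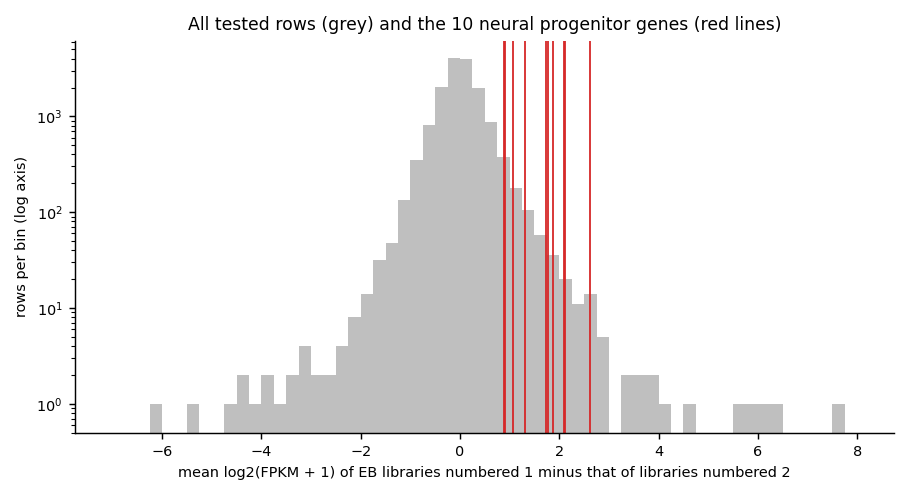
Mean log2(FPKM + 1) of the EB libraries numbered 1 minus that of the libraries numbered 2 (horizontal axis) for all 15160 rows tested (grey bars, number of rows per bin, log axis) and for the 10 genes (red lines). The bars centre near 0, while the lines lie between 0.89 and 2.61.

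Within replicate number 1 the KO to WT ratio ran from 0.468 (Zic1) to 2.15 (Hes5) with a median of 0.938, and KO was the lower library in 5 of 10 genes (46.9% of all rows). Within replicate number 2 it ran from 0.069 (Pou3f2) to 1.01 (Sox3) with a median of 0.528, and KO was lower in 9 of 10 (48.9% of all rows). The codes of the EB libraries numbered 1 begin differently from those numbered 2, and whether that marks a batch is not stated. Pluripotent cell markers also differed between the EB libraries: all 8 were above 1 FPKM in every EB library and none was at 0. Their sum was 466 and 1148 FPKM in WT EB replicates 1 and 2 and 1553 and 1994 FPKM in KO EB replicates 1 and 2, against 2239 to 2377 FPKM in ESCs and 2.43 to 12.1 FPKM in embryos. Pou5f1, a core pluripotency factor, was 83.3 and 199 FPKM in WT and 233 and 316 FPKM in KO EBs. None of the 8 pluripotent markers was called by genotype in EBs, and their median KO minus WT log2 difference was 1.21. At an unadjusted p under 0.05 in limma there were 4, against 13.8% of all rows. Both EB libraries numbered 1 were below both numbered 2 in 3 of the 8 and above in none. The summed FPKM of the 10 neural progenitor genes was 74.9 and 24.8 in WT and 77.0 and 12.7 in KO. Within each genotype the library with more of the pluripotent markers had less of the neural progenitor sum, but KO EB replicate 1 had the highest neural sum with more pluripotent markers than WT EB replicate 2. The part of remaining pluripotent cells in the levels was not tested, and in EBs fewer progenitors and less RNA per progenitor cannot be told apart.

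Markers of other cell types were also read in EBs. Endoderm and yolk sac markers summed to 245 and 284 FPKM in WT and 159 and 247 FPKM in KO, and cardiac and mesoderm markers to 177 and 94.5 FPKM in WT and 50.0 and 41.2 FPKM in KO. Gata4 made up most of the cardiac and mesoderm sum in KO EBs, at 37.1 and 32.8 FPKM, against 18.6 and 31.8 FPKM in WT. Actc1 was 79.3 and 19.3 FPKM in WT and 2.52 and 0.207 FPKM in KO EBs. Of the 9 genes of that list tested, Tnnt2 was called lower in KO (log2 difference -2.72, SE 0.298, limma adjusted p = 0.0241). At an unadjusted p under 0.05 in limma there were 7 of the 9, against 13.8% of all rows, and the median log2 difference was -1.84. Gata4 and Tbx6 had higher means in KO, short of the adjusted threshold. Surface ectoderm markers summed to 418 to 503 FPKM over the EB libraries and neural crest markers to 12.4 to 28.5 FPKM. Endothelial markers summed to 30.3 and 29.6 FPKM in WT and 16.2 and 19.5 FPKM in KO EBs. Of these 6 genes, Kdr was called lower in KO (log2 difference -2.21, SE 0.227, limma adjusted p = 0.0191). At an unadjusted p under 0.05 in limma there were 4, against 13.8% of all rows. Tek went the other way (0.13), short of the threshold. Erythroid markers summed to 0 to 3.97 FPKM over the EB libraries. Erythroid markers were at 0 in both KO EB libraries. In the WT and KO ESC libraries the surface ectoderm sum was 238 and 187 FPKM and the endothelial sum 56.4 and 59.7 FPKM. Pecam1 made up most of the endothelial sum in KO EBs, at 12.1 and 16.6 FPKM, where Cdh5 was 0.549 and 0.119 FPKM. A sum does not by itself show that the cell type was present. In embryos erythroid markers summed to 913 and 2127 FPKM at E8.0 and to 11570 and 7589 FPKM at E9.0, fibroblast markers to 40.6 and 69.5 against 231 and 158 FPKM, and endothelial markers to 66.1 to 76.3 FPKM over both stages. Endoderm and yolk sac markers summed to 449 and 723 FPKM at E8.0 and to 43.5 and 24.6 FPKM at E9.0, with 7 of 8 called lower. Surface ectoderm markers summed to 261 and 262 against 134 and 106 FPKM, with 6 of 7 called lower and 1, Trp63, called higher. Trp63 was 1.29 and 1.43 FPKM at E8.0 and 3.22 and 2.76 FPKM at E9.0 (log2 difference 0.76, limma adjusted p = 0.0224). Neural crest markers summed to 71.2 and 78.7 against 114 and 117 FPKM, and cardiac and mesoderm markers to 590.0 and 589.7 against 566 and 458 FPKM. The part of these cell types in the stage differences of the 10 genes was not tested.

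WT EBs were compared with the mean of the E8.0 and E9.0 groups to place their levels against the embryo. Hes5, Sox3, Zic1, Nes and Pax6 were lower in WT EBs, and Sox21, Sox1, Pou3f3, Pou3f2 and Fabp7 did not pass. Of all rows, 44.2% were called, 23.9% higher and 20.3% lower in WT EBs, so 5 of 10 called is close to the share over all rows, while the direction was lower for each. Sox3 was lower by a log2 difference of -2.46 (SE 0.526, limma adjusted p = 0.00923) and Hes5 by -2.47 (SE 0.757, limma adjusted p = 0.0332). Zic1 gave -1.49 (SE 0.286, limma adjusted p = 0.00619), Nes -1.29 (SE 0.297, limma adjusted p = 0.0123) and Pax6 -1.27 (SE 0.430, limma adjusted p = 0.0460). Fabp7 gave 0.43 (SE 0.602, limma adjusted p = 0.583), and its 12.9 FPKM in WT EB replicate 1 was above every embryo library.

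The stage of the embryo mattered to this comparison. In contrasts chosen after seeing the data, WT EBs were called lower than E8.0 embryos for Sox3 alone (log2 difference -2.20, limma adjusted p = 0.0179), and lower than E9.0 embryos for 5 genes, Hes5, Nes, Pou3f3, Sox3 and Zic1. Over all rows 39.8% were called against E8.0 (21.8% higher, 18.0% lower) and 46.5% against E9.0 (24.7% higher, 21.8% lower). Zic1 in WT EBs, 6.08 and 2.39 FPKM, spanned the E8.0 values of 4.93 and 5.33 FPKM. Pou3f3 in WT EBs was above both E8.0 libraries in both replicates and below both E9.0 libraries. Without WT EB replicate 2, no gene was called against the embryo mean, and without WT EB replicate 1, or without any 1 embryo library, the calls were Nes, Sox3 and Zic1.

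Across the 10 libraries the genes varied together. The Pearson r of each with the mean of the other 9, on standardised log2(FPKM + 1), over all 10 libraries was highest for Hes5 (0.983) and Pou3f2 (0.964) and lowest for Fabp7 (0.858) and Pou3f3 (0.843). Over the 45 pairs r ran from 0.658 for Pou3f3 and Pax6 to 0.968 for Nes and Zic1, with a median of 0.883. These are descriptions over 10 libraries that share groups and a low ESC level, and no p is given. Among 11198 other genes with at least 5 FPKM in some library, those most like the mean of the 10 were Pcdh8 (r = 0.995), Gnas (0.993), Maged2 (0.991), Six5 (0.991), Igdcc3 (0.989), Fam181b (0.988), Fam181a (0.988), Pea15a (0.988), Ptpn9 (0.987) and Armcx4 (0.983). Pcdh8, a protocadherin, was 6.61 and 1.04 FPKM in WT EBs, 4.69 and 0.380 FPKM in KO EBs, 4.50 and 4.08 FPKM at E8.0 and 15.1 and 13.7 FPKM at E9.0. Igdcc3, a cell-surface protein of the immunoglobulin superfamily, was 45.0 and 13.0 FPKM in WT EBs and 34.5 and 2.30 FPKM in KO EBs. Both had the order of replicate numbers of the 10 genes. They were chosen for likeness over libraries that include these EBs, so this order is no separate observation.

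Other genes of the same cells and pathway were read from lists. Of 26 further neural progenitor genes tested, 7 rose and none fell from E8.0 to E9.0 with a median of 0.12. None was called by genotype in EBs (1 at an unadjusted p under 0.05 in limma, against 13.8% of all rows). In WT EBs 2 were higher and 13 lower than in embryos. Vim, which encodes vimentin, rose from 118 and 138 FPKM at E8.0 to 334 and 361 FPKM at E9.0 (log2 difference 1.44, limma adjusted p = 0.00862), and Metrn, a secreted factor of glia, from 53.1 and 49.7 to 202 and 184 FPKM (1.89, limma adjusted p = 0.00105). Tead2 and Hmga2 did not pass (log2 differences -0.11 and -0.20). Both EB libraries numbered 1 were above both numbered 2 in 17 of the 26 and below in 2. Sox2, which neural progenitors share with pluripotent cells, went the other way from Sox1 and Sox3 within each genotype, with 38.0 and 62.9 FPKM in WT and 58.3 and 79.2 FPKM in KO EB replicates 1 and 2. It was chosen after its values were seen.

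Of the 25 Notch pathway genes listed, 23 were tested, and 7 rose and 3 fell from E8.0 to E9.0. The receptor Notch3 rose from 21.0 and 20.7 to 34.1 and 33.6 FPKM (log2 difference 0.68, limma adjusted p = 0.00263). Rbpj, the DNA-binding partner of the receptor, was 22.2 and 21.6 FPKM at E8.0 and 23.4 and 22.4 FPKM at E9.0, and Hes1, another Notch target, was 33.3 and 36.3 against 29.3 and 36.4 FPKM, both short of the threshold. Ncstn, a gamma-secretase subunit, also did not pass (log2 difference -0.06). None of the 23 was called by genotype in EBs. At an unadjusted p under 0.05 in limma there were 3 (Notch1, Jag2 and Hes6, each higher in KO), against 13.8% of all rows. Both EB libraries numbered 1 were above both numbered 2 in 11 of the 23, with none in the opposite order. WT EBs were higher than embryos for 2 and lower for 13.

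Of 20 early neuron genes listed, 17 were tested, and 14 rose and 1 fell from E8.0 to E9.0, with a median log2 difference of 1.40. Stmn2, which encodes stathmin 2, was the one that fell, from 10.9 and 9.00 to 6.17 and 5.76 FPKM (log2 difference -0.65, limma adjusted p = 0.00442). Isl1, a factor of motor and sensory neurons that heart progenitors also express, rose by 0.48 (limma adjusted p = 0.0177). It was the 1 gene of the list called by genotype, at 9.73 and 5.97 FPKM in WT and 0.657 and 0.637 FPKM in KO EBs (log2 difference -2.39, SE 0.252, limma adjusted p = 0.0192). Both WT EB libraries were above both KO EB libraries for this gene. By genotype 7 of the 17 had an unadjusted p under 0.05 in limma, against 13.8% of all rows, and the median log2 difference was -0.85. Stmn2 went the other way, with 17.4 and 17.0 FPKM in WT and 41.0 and 51.5 FPKM in KO EBs (log2 difference 1.37, SE 0.232, limma adjusted p = 0.123). Map2 and Gap43 did not pass for either comparison. WT EBs were higher than embryos for 1 gene of this list and lower for 2.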

How the data were processed

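RNA was measured in 10 mouse libraries, and groups were taken from the labels. Labels and methods name different ribosomal RNA depletion kits. The authors trimmed adapters, aligned paired reads to GRCm38 with STAR 2.5.2b and estimated FPKM with Cufflinks 2.2.1, using strand, and they deposited 1 FPKM table for the series. Cuffdiff, their test, needs alignments and was not run. Here limma 3.58.1 in R 4.3.3 was fitted with a trend to log2(FPKM + 1) of the 8 EB and embryo libraries in 4 groups. Array weights of 0.428 for EBs and 2.34 for embryos were used, since EB replicates differed more. Each row kept 1 variance over both materials, scaled by these weights, so EB spread also entered the SEs between embryonic stages. A row entered when 2 or more of the 8 libraries reached an FPKM of 1, which left 15160 of 46955 rows, 794 of them with merged names. The Benjamini-Hochberg method adjusted two-sided p-values across every tested row, with a threshold of 0.05. The fit was also run on simulated data with independent libraries, which do not cover differences shared by EB libraries of the same number. ESC groups had 1 library each and were not tested. Depth was recovered from FPKM steps of genes with 1 transcript, so fragments are estimates.

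Named genes were the 10 members, Strap, genes of each list chosen by highest mean FPKM over the 10 libraries, and the 10 genes most like the members' mean. Sox2, Tnnt2, Tbx6, Trp63, Notch1, Jag2 and Hes6 were not chosen by mean FPKM but named after their values were seen. The members and lists were chosen with earlier results of these data known. Alternatives were other pseudocounts, filters, scaling and variance models, a replicate block and leaving out each library.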

Additional observations from a re-analysis of the deposited data

How the results depend on the processing

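Of the calls between the embryonic stages, Pou3f3 and Zic1 held in every planned setting. The count of called genes was 2 with a single variance for all libraries, where 352 rows were called in place of 3910. With only the groups compared the count was 7, with Sox3 added, and 2866 rows were called. Leaving out 1 library at a time gave 3 to 6 genes and 1438 to 3880 rows. For WT EBs against embryos 3 genes (Nes, Sox3, Zic1) were called with a pseudocount of 0.1, with no filter or with a single variance, 1 against E8.0 embryos alone, and 0 to 7 genes and 1388 to 6389 rows when a library was left out. Against E8.0 alone Pou3f2 (0.24) and Pou3f3 (0.60) changed sign, and against E9.0 alone Fabp7 did (-0.37). None of the 10 genes was called by genotype in EBs in any setting, while the number of rows called, 21, became 36 with a pseudocount of 0.1, 8 with no filter, 581 with a single variance, 2 with only the groups compared, and 8 to 18 when a library was left out. The causes of these shifts were not tested.

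Leaving out 1 EB library at a time, the KO minus WT log2 difference ran from -1.37 to 0.87 for Sox1, -0.68 to 1.504 for Sox3, -0.82 to 1.22 for Sox21, -2.21 to 0.55 for Pou3f2, -1.02 to 0.19 for Pou3f3, -1.27 to 1.98 for Hes5, -2.40 to 0.030 for Fabp7 and -0.64 to 0.39 for Nes, so each of these 8 turned its sign. For Sox1, Pou3f2, Pou3f3, Fabp7 and Nes the highest value came without KO EB replicate 2, and for Sox3, Sox21 and Hes5 the lowest came without KO EB replicate 1. Pax6 between stages ran from -0.23 to 0.13 (highest without E9.0 replicate 1). Against embryos, Pou3f2 ran from -1.25 to 0.23 (highest without WT EB replicate 2) and Fabp7 from -0.46 to 1.32 (lowest without WT EB replicate 1).

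The labels do not say that replicate numbers pair the samples. Deviations of same-numbered libraries correlated at 0.415 in EBs and -0.031 in embryos, over rows. With a replicate block, 613 rows (283 higher, 330 lower) but none of the 10 genes were called by genotype, although 4 of them (Fabp7, Pax6, Pou3f2 and Zic1, adjusted p 0.0527 to 0.173 in limma) had an unadjusted p under 0.05, as did 28.3% of all rows. The block called 6 genes between stages, and 8 genes for WT EBs against embryos (Hes5, Nes, Pax6, Pou3f3, Sox1, Sox21, Sox3 and Zic1). Depth limits the ESC values most, where 4 of the 5 genes with 1 transcript had 24 or fewer estimated fragments.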
